A study of Mus musculus with 12 samples.

Results

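The genes examined were the Gadd45 family (Gadd45a, Gadd45b and Gadd45g) and 4 core targets of the transcription factor p53 (Cdkn1a, Mdm2, Ccng1 and Ppm1d). They were chosen by symbol, as 7 of the 20989 gene loci in the deposited tables, and all 7 reached the minimum for testing, a mean FPKM of 1, as did 12032 loci in all. FPKM counts sequenced fragments relative to the length of the transcript and to the depth of the library on protein coding genes. The tissue was auditory cortex in acute brain slices from 6 C57bl6/J mice at 4 weeks of age. Each slice was divided at the midline, both parts rested in artificial cerebrospinal fluid (aCSF), and then the hemispheres were separated into the groups compared. The control hemisphere was kept in fresh aCSF for 1 h (n = 6). The cocktail hemisphere was kept for 1 h in aCSF with 50 µM Bicuculline methiodide, an antagonist of GABA-A receptors, 100 µM Norepinephrin, 50 µM Carbamoylcholine, an agonist of acetylcholine receptors, 100 µM Dopamine, 100 µM Serotonin and 40 µM Ascorbic Acid (n = 6). A closing rest of 1 h in aCSF for both hemispheres is described in the methods and absent from the labels. All components were given together, so none of them can be told apart from the others, and every control was itself a cut and incubated slice.

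Gadd45 proteins are small nuclear stress sensors without known enzyme activity. They bind PCNA, the kinase Cdk1, the Cdk inhibitor p21 and the kinase Map3k4 upstream of p38 and JNK, and they have been linked to active DNA demethylation at gene promoters. In neurons Gadd45b and Gadd45g are known as genes that respond to activity, whereas Gadd45a is the classical family member induced by p53 after DNA damage. Cdkn1a encodes p21, Mdm2 the ubiquitin ligase that degrades p53, Ccng1 cyclin G1 and Ppm1d the phosphatase Wip1, and the last 3 are known to feed back on p53. The study was about chromatin reorganization in stimulated neurons and also stained cultured neurons for a marker of DNA breaks. The comparison here asks how transcripts of this gene group differed between the hemispheres.

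The reads behind the FPKM values, recovered from the interval that Cufflinks gives with each value, summed to between 10601067 and 19768881 per control library and between 13544813 and 17643462 per cocktail library. The control library of mouse 1 had the lowest summed FPKM of the 12 (290155 against 306085 to 321759), and in that mouse the median difference between the hemispheres over all loci was 0.10 on the log2(FPKM + 1) scale, against -0.05 to 0.02 in the others. The 8 markers of excitatory neurons had a summed FPKM of 1364 to 1509 in control and 1291 to 1480 in cocktail libraries. The 4 markers of choroid plexus summed to 1.07 to 1.80 and 0.967 to 2.07 FPKM, and the sum was higher with the cocktail in 4 of 6 mice. Of 46 marker loci of 9 tissues and cell types tested, 0 were called with limma and 0 with voom, and 1 had an unadjusted p under 0.05. All 6 oligodendrocyte markers (median log2 fold change 0.10) and all 7 inhibitory neuron markers (median 0.07) were above 0, and the excitatory median was -0.03. Of the 6 astrocyte markers, 5 were above 0 (median 0.06), and all 4 striatum markers tested were below 0 (median -0.09). The oligodendrocyte median is about as large as the uncalled values of Cdkn1a and Mdm2 given further on, and the part of these shifts in those values was not tested. The locus under 0.05 was the hemoglobin gene Hbb-b1, a marker of blood, with a log2 fold change of 0.45 (adjusted p = 0.0935 from limma).

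Gadd45g and Gadd45b were higher in cocktail-treated slices, and the 4 core p53 targets were not called. Of the 7 genes, 2 rose, 0 fell and 5 did not pass the test, where a call is an adjusted p under 0.05 from limma with the mouse as a block and with Benjamini-Hochberg adjustment over all loci. Among all loci tested, 1.5% were called and 1.22% were called higher. At an unadjusted p under 0.05, 4 of the 7 genes passed, against 8.05% of all loci. Of the 7, 2 were higher in the cocktail hemisphere of all 6 mice, as were 3.64% of all loci, while 6.3% moved the same way in all 6 mice in either direction. The log2 fold changes of the 7 genes had a median of 0.11, against 0.0076 over all loci, and 6 of 7 were above 0, as were 54.4% of all loci. These fold changes are differences of log2(FPKM + 1) within mice, so they understate changes at low FPKM. In bulk tissue, fewer cells of a type and less RNA per cell cannot be told apart.

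**Figure D1:**
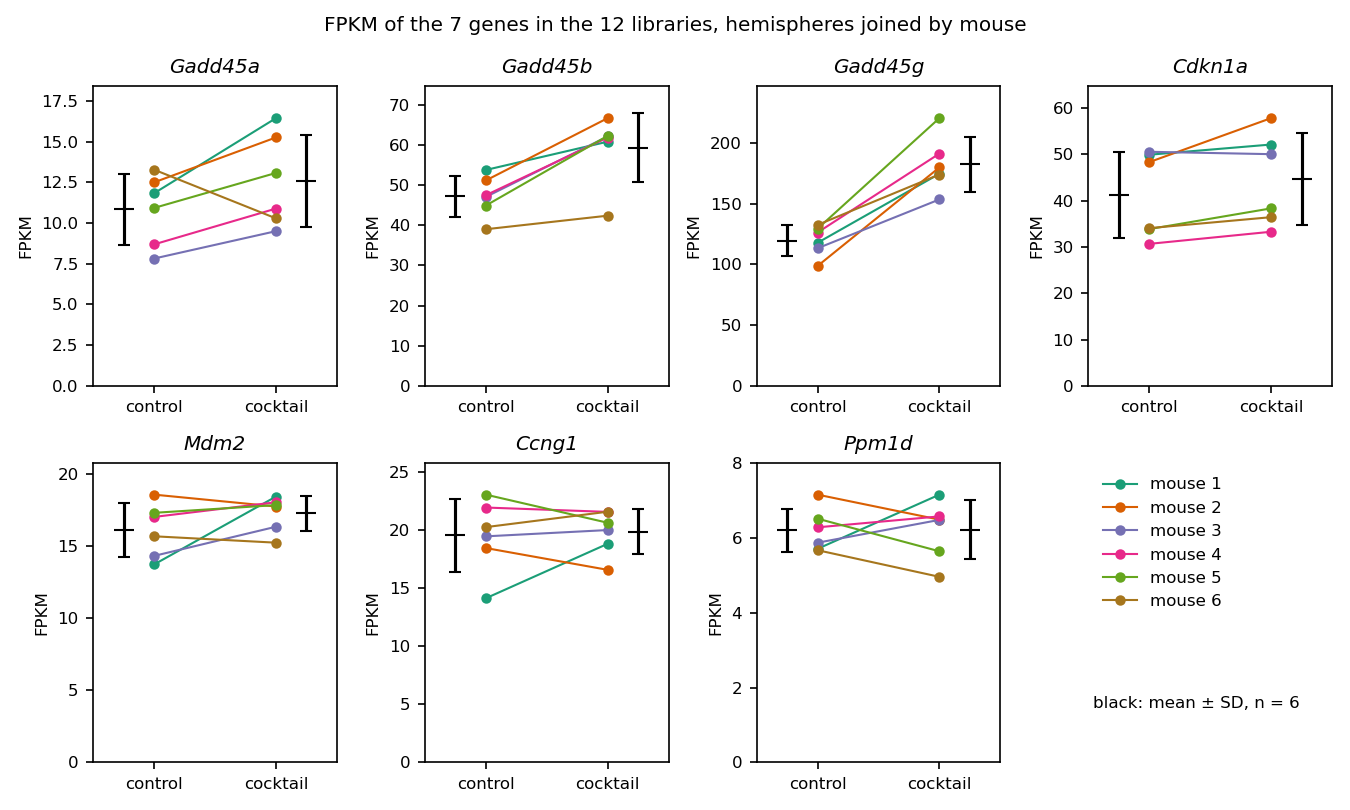
FPKM (y axis, starting at 0) of the 7 genes in the control and cocktail hemispheres, with a line for each of the 6 mice and black marks for the mean ± SD. The groups do not overlap for Gadd45g, the lines of Gadd45b all go up, and Cdkn1a keeps 3 high and 3 low mice in both groups.

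Gadd45g lies on chromosome 13 of mm10 from 51846675 to 51848474, on the plus strand, and its exons overlap those of no other gene in GENCODE M21. It was the most abundant of the 7 genes. Its FPKM ranged from 98.7 over a median of 122 to 133 in control slices and from 154 over a median of 177 to 220.5 in cocktail-treated slices. The lowest cocktail library thus lay above the highest control library, a separation that 0.715% of all loci tested showed upwards and 0.914% in either direction. The mean went from 120 ± 12.6 to 182 ± 22.4 FPKM (SD, n = 6 each), with 1786 to 4760 reads behind each value. The log2 fold change was 0.60 (standard error 0.062, 95% interval 0.47 to 0.74, adjusted p = 0.000214 from limma), the 41st largest rise of the loci tested. FPKM was higher in the cocktail hemisphere of 6 of 6 mice, by 1.31 times in mouse 6 to 1.82 times in mouse 2, and an exact permutation test that flipped the signs of the 6 within-mouse differences (two-sided) gave p = 0.03125, the smallest that 6 pairs allow. Gadd45g was called in every alternative tried, without the block too (adjusted p = 0.000854 from limma).

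Gadd45b lies on chromosome 10 from 80930091 to 80932204, on the plus strand, also with no exon shared with another gene. Its FPKM ranged from 39.0 over a median of 47.3 to 53.8 in control and from 42.4 over a median of 62.0 to 66.7 in cocktail-treated slices. The groups overlapped because of mouse 6 alone, whose cocktail value of 42.4 lay inside the control range, while the other 5 cocktail values (60.8 to 66.7) were above every control. The mean went from 47.2 ± 5.12 to 59.4 ± 8.56 FPKM (SD, n = 6 each), on 592 to 1758 reads. The log2 fold change was 0.32 (standard error 0.054, 95% interval 0.20 to 0.43, adjusted p = 0.00997 from limma), with a rise in 6 of 6 mice (exact sign-flip permutation p = 0.03125). Mouse 6 had both the lowest control value and the smallest rise, of 0.12. The size of the rise moved little between settings, from 0.27 to 0.36, but the call did not hold in all of them: the adjusted p from limma was 0.299 without the block and 0.0861 with voom on the recovered reads, and 0.0507, 0.0569 and 0.0598 without mouse 2, 3 and 4.

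Gadd45a lies on the minus strand of chromosome 6 from 67035096 to 67037407, and 337 of its exonic bases overlap exons of the noncoding gene E230016M11Rik on the plus strand. The libraries were strand specific according to the methods, but the strand setting of Cufflinks is not given in the sources used here, so reads of this pair may be mixed. Gadd45a was the least abundant family member, with 7.82 to 13.3 FPKM in control (median 11.4) and 9.50 to 16.4 in cocktail-treated slices (median 11.99), on 196 to 485 reads. The cocktail hemisphere was higher in 5 of 6 mice, by 1.197 to 1.39 times, and in mouse 6 it was lower, at 0.775 times the control. The means were 10.8 ± 2.16 and 12.6 ± 2.83 FPKM (SD, n = 6 each). This log2 fold change, 0.19 with a standard error of 0.085 and a 95% interval of 0.0068 to 0.38, was not called (adjusted p = 0.581 from limma). Of the 14 alternatives, only the one without mouse 6 called Gadd45a, with a log2 fold change of 0.30 (adjusted p = 0.0277 from limma). The adjusted p from limma was 0.999 without the block and 0.473 with voom on the recovered reads. Mouse 6 stood out in these same data, so this alternative is no independent support. The control library of mouse 6 had the fewest recovered reads of all libraries (10601067), and the part of depth in its values was not tested.

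**Figure D2:**
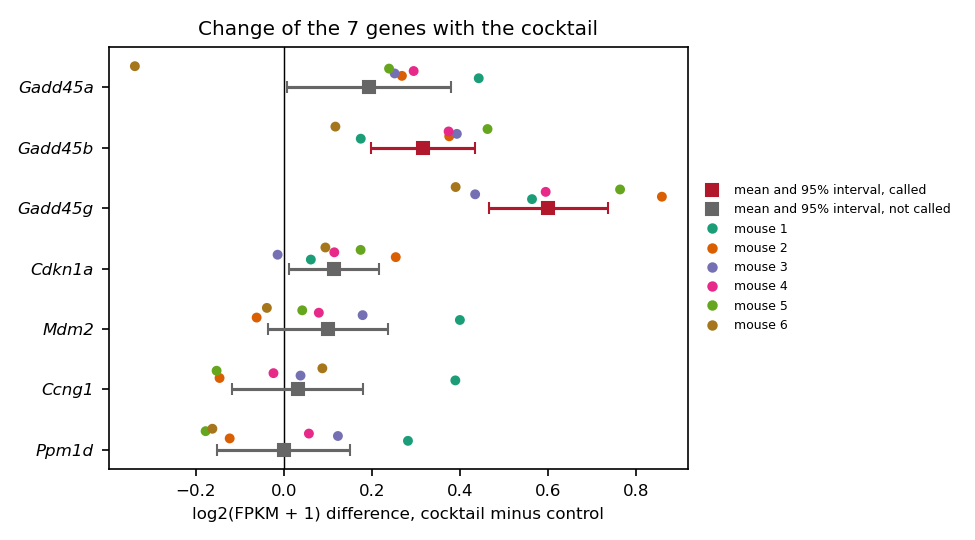
Difference of log2(FPKM + 1), cocktail minus control (x axis), of the 7 genes, with squares and bars for the mean and 95% interval of the limma fit (red where called) and a point for each mouse. Gadd45g (0.60) and Gadd45b (0.32) lie farthest right, and mouse 6 of Gadd45a stands at -0.34, apart from the other 5 mice.

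The changes of the family members were compared within mice. The change of Gadd45g exceeded that of Gadd45b by 0.28 on the log2 scale (95% interval 0.13 to 0.44) and that of Gadd45a by 0.41 (0.15 to 0.66), each in 6 of 6 mice. The exact sign-flip permutation p was 0.03125 for both, the smallest that 6 mice allow, and 0.0938 after adjustment over the 6 pairs of genes compared. Neither difference passed. With no other pair of genes at the smallest p, the adjusted value could not fall under 0.05, so it cannot decide whether these changes differ. Gadd45b exceeded Gadd45a by 0.12 (-0.12 to 0.37, in 5 of 6 mice, exact sign-flip permutation p = 0.281, adjusted 0.469). The summed FPKM of the family was 178 ± 9.89 in control and 254 ± 26.4 in cocktail-treated slices (SD, n = 6 each). Of this sum, Gadd45g made up 60.8% to 71.7% in control and 68.2% to 76.8% in cocktail libraries, with a larger share in the cocktail hemisphere of all 6 mice. The share of Gadd45b was smaller in the cocktail hemisphere of all 6 mice, with means of 26.7% in control and 23.4% in the cocktail, although its own level rose.

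The 250 bases before the transcript start of the 3 genes are shown to compare the promoters within the family (RefSeq, GRCm38.p6). The changes of Gadd45b and Gadd45a were not told apart above, and a link between motifs and changes was not tested. Capitals mark matches, none of which overlap, to 6 motifs, searched on both strands: TATAAA for the TATA box, CCAAT for the CAAT box, CACGTG for the E-box, TGACGTCA for the cAMP response element, TGANTCA for AP-1 and the p53 decamer, the unit that occurs as a pair in p53 response elements.
Gadd45g, chr13:51846425-51846674, strand +: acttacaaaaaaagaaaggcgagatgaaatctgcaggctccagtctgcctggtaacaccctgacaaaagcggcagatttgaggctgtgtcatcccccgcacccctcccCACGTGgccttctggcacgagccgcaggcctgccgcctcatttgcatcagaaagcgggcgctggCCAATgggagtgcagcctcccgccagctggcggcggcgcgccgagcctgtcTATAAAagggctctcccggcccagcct
Gadd45b, chr10:80929841-80930090, strand +: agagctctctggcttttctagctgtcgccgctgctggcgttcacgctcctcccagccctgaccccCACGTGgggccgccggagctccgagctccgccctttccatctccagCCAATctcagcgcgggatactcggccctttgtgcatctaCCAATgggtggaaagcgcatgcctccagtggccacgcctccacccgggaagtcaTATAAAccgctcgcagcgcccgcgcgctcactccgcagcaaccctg
Gadd45a, chr6:67037408-67037657, strand -: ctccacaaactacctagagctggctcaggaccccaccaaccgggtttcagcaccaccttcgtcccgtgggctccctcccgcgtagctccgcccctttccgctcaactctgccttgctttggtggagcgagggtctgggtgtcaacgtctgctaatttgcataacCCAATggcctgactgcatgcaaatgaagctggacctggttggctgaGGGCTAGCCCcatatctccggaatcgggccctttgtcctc
TATAAA occurs in the windows of Gadd45g and Gadd45b, with its first base at -27 and -46 from the start, but not in that of Gadd45a. Among 32536 promoters of the same length, 12.3% hold it. CACGTG likewise occurs in Gadd45g (-142) and Gadd45b (-185) and not in Gadd45a, and 6.04% of all promoters hold it. CCAAT, found in 33.8% of promoters, occurs in all 3. The p53 decamer, found in 7.12% of promoters, occurs in Gadd45a alone of the 3 (-40). TGACGTCA (1.56% of promoters) and TGANTCA (6.73%) occur in none of the 3 windows. The motifs were chosen with these sequences in view, and a match is a run of letters, not a measured site.

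Cdkn1a, whose product p21 inhibits cyclin-dependent kinases, spans 29090986 to 29100722 on the plus strand of chromosome 17. Of its exonic bases, 273 overlap AC167363.2, a locus on the minus strand that has no assigned function. Its values differed far more between mice than between treatments. Control FPKM was 48.3 to 50.6 in mice 1, 2 and 3 and 30.7 to 34.1 in mice 4, 5 and 6, and cocktail FPKM was 50.0 to 57.8 and 33.3 to 38.3 in the same mice. Each mouse thus kept its level in both hemispheres. The SD over mice of the mean log2(FPKM + 1) of both hemispheres was 0.32, larger than for 99.1% of the loci tested, against a median of 0.10 over all loci. The group means were 41.2 ± 9.27 and 44.7 ± 9.95 FPKM (SD, n = 6 each), on 691 to 1938 reads. The log2 fold change was 0.11 (standard error 0.047, 95% interval 0.012 to 0.22), higher in 5 of 6 mice, and was not called (unadjusted p = 0.0318, adjusted p = 0.515 from limma). Among the alternatives the adjusted p ranged from 0.376 to 0.999. What set the mice apart was not tested, and the labels give no litter, day or sex for them.

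The region before the upstream start of Cdkn1a is shown with capitals as above (RefSeq, GRCm38.p6). It holds more matches to the p53 decamer than any other of the 8 windows of the 7 genes.
Cdkn1a, chr17:29090729-29090978, strand +: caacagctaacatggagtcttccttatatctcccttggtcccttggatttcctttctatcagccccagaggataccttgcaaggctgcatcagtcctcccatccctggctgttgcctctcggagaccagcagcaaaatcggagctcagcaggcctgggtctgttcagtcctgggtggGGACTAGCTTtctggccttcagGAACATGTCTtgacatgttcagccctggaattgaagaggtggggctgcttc
The decamers begin at -73 and -51 from that start. Only full matches are marked, and whether these decamers form a p53 response element together was not tested. The window before the downstream start of Cdkn1a, at 29093519 to 29093768, holds none of the 6 motifs. One p53 decamer each lies in the windows of Mdm2 (-186), Ccng1 (-185) and Ppm1d (-132), so that 5 of the 7 genes have a match. The window of Ppm1d also holds the only TGACGTCA of the 8 (-85). These are descriptions of the letters, and p53 sites farther from the start were not searched.

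**Figure D3:**
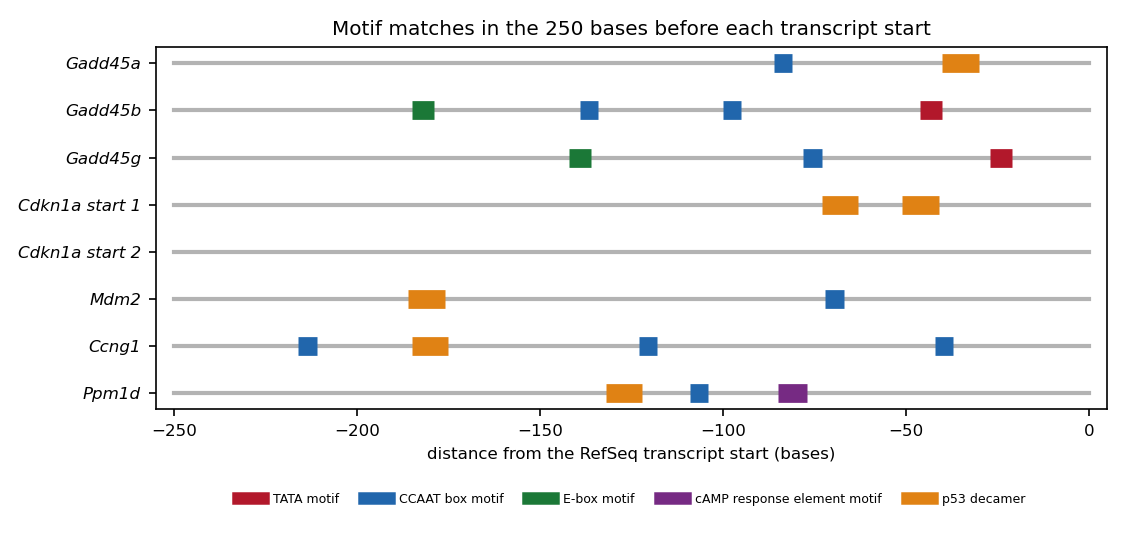
Matches to 5 of the 6 motifs (colored blocks; the AP-1 motif had none) in the 250 bases before each RefSeq transcript start, with the distance from the start in bases on the x axis. Gadd45b and Gadd45g carry the TATA and E-box motifs, and the p53 decamer appears in Gadd45a, Cdkn1a, Mdm2, Ccng1 and Ppm1d.

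The 3 genes that feed back on p53 were not called, and the 95% interval of each covered 0. Mdm2, on the minus strand of chromosome 10 from 117688875 to 117710758, ranged from 13.7 to 18.6 FPKM in control (median 16.4) and from 15.3 to 18.5 FPKM in cocktail-treated slices (median 17.8). All 6 cocktail values of Mdm2 lay inside the control range. Its log2 fold change was 0.10 (standard error 0.063, 95% interval -0.04 to 0.24, adjusted p = 0.783 from limma), and 0.04 without mouse 1.

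Ccng1, on the minus strand of chromosome 11 from 40748552 to 40755286, ranged from 14.1 to 23.1 FPKM in control (median 19.9) and from 16.6 to 21.6 FPKM in cocktail-treated slices (median 20.3). It was higher in the cocktail hemisphere of 3 mice and lower in 3. Its log2 fold change was 0.03 (standard error 0.068, 95% interval -0.12 to 0.18, adjusted p = 0.949 from limma), and it turned to -0.04 without mouse 1. Ppm1d, on the plus strand of chromosome 11 from 85311254 to 85347071, was the least abundant of the 7 genes, with 5.67 to 7.15 FPKM in control (median 6.07) and 4.96 to 7.15 FPKM in cocktail-treated slices (median 6.48). It too was higher in 3 mice and lower in 3. Its mean change was -0.00043 on the log2 scale (standard error 0.069, 95% interval -0.15 to 0.15, adjusted p = 0.999 from limma).

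For Mdm2, Ccng1, Ppm1d and also Gadd45a the largest difference was that of mouse 1 (0.40, 0.39, 0.28 and 0.44), the mouse whose control library had the lowest summed FPKM. With median-of-ratios scaling these differences were 0.29, 0.28, 0.18 and 0.34. Compared within mice, the change of Cdkn1a exceeded that of Mdm2 by 0.01 (95% interval -0.24 to 0.27), that of Ccng1 by 0.08 (-0.20 to 0.36) and that of Ppm1d by 0.11 (-0.15 to 0.38). The adjusted p of these 3 differences was 0.938, 0.525 and 0.469 from the exact sign-flip permutation test, and their intervals reach 0.27, 0.36 and 0.38.

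**Figure D4:**
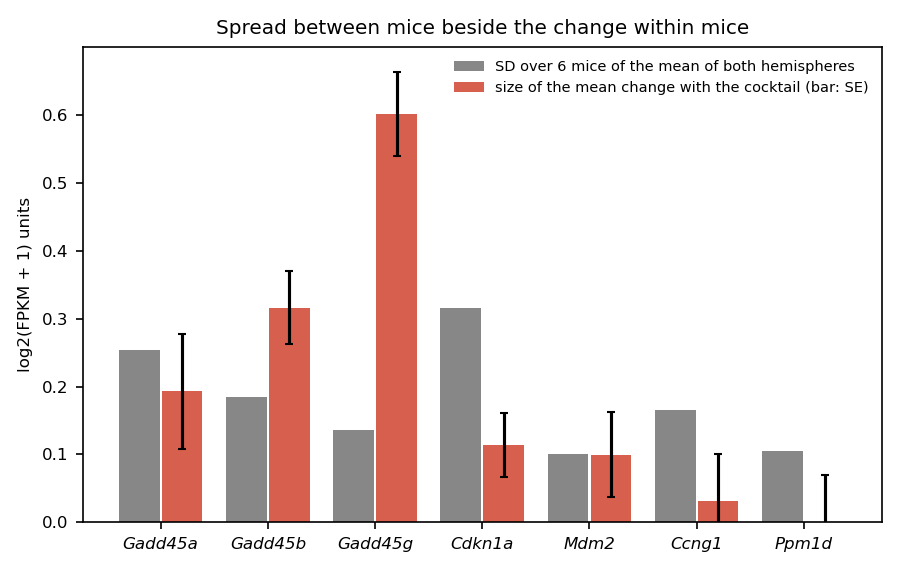
Spread between mice (gray bars, SD over 6 mice of the mean of both hemispheres) and size of the mean change with the cocktail (red bars, with the standard error of the limma fit) on the log2(FPKM + 1) scale, for the 7 genes. The change exceeds the spread for Gadd45g (0.60 against 0.14) and Gadd45b (0.32 against 0.19). For Mdm2 they are about equal (0.0998 against 0.1012). The spread is larger for Gadd45a, Ccng1, Ppm1d and Cdkn1a, with the largest gap in log2 units for Cdkn1a (0.11 against 0.32).

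In control slices, levels per transcript length followed the order Gadd45g (120 FPKM), Gadd45b (47.2), Cdkn1a (41.2), Ccng1 (19.6), Mdm2 (16.1), Gadd45a (10.8) and Ppm1d (6.19). The ranges of Gadd45b and Cdkn1a overlapped, with Gadd45b the higher in 5 of 6 libraries, and so did those of Ccng1 and Mdm2 (5 of 6). The order was the same in the cocktail, where the ranges of Mdm2 and Gadd45a overlapped as well. Among the loci tested, the control level of Gadd45g lay at the 96.4th percentile and that of Ppm1d at the 35.1st.

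Over the 12 libraries, which share the mice and the treatment split, Gadd45g was most like Arl4d, a small GTPase gene (Pearson r = 0.97, Spearman rho = 0.97), and the AP-1 subunit gene Fosb (0.96 and 0.97) in log2(FPKM + 1). Both were called higher here, with log2 fold changes of 0.82 and 0.81. The correlation includes the treatment split, so whether such loci were called is no separate evidence. The loci most like Gadd45b were Plekhf1 (r = 0.95, rho = 0.92) and the ubiquitin ligase gene Siah2 (0.94 and 0.88), which were also called (log2 fold changes 0.46 and 0.35). Gadd45a was most like the clock-related repressor gene Bhlhe40 (r = 0.87, rho = 0.76), which was called (log2 fold change 0.21), and Slc35e1 (0.84 and 0.94), which was not. The loci most like the core p53 targets were not called: Grasp (r = 0.97) and Pdlim2 (0.94) for Cdkn1a, the cold-inducible gene Rbm3 (0.95) and Enkur (0.95) for Mdm2, Tmem229a (0.97) and Zhx1 (0.97) for Ccng1, and Ankrd28 (0.92) and Rnf19a (0.92) for Ppm1d. Between members, r was 0.54 for Gadd45b and Gadd45g, 0.69 for Mdm2 and Ppm1d and -0.74 for Cdkn1a and Ccng1.

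Other known p53 targets moved in both directions, and most did not pass the test. Of 40 listed, 34 were tested, of which 5 were called higher (against 1.22% of all loci), 1 was called lower (against 0.274%) and 28 were not called. Their median log2 fold change was 0.01, and 18 of 34 were above 0. Among the genes that rose, Btg2, an antiproliferative gene, and the polo-like kinase genes Plk2 and Plk3 are known to be induced rapidly by stimuli. What raised them here was not tested. Btg2 went from 32.2 ± 11.9 to 66.4 ± 16.5 FPKM (SD, n = 6 each; log2 fold change 1.07, adjusted p = 3.86e-05 from limma). Its groups did not overlap, but only narrowly: the highest control value was 45.6 and the lowest cocktail value 46.0 FPKM. Plk2 went from 100.0 ± 9.43 to 144 ± 13.5 FPKM (0.52, adjusted p = 0.000154 from limma) and Plk3 from 21.6 ± 1.44 to 29.0 ± 3.25 FPKM (0.41, adjusted p = 0.00276 from limma), each higher in 6 of 6 mice and without overlap. With voom on the recovered reads the call of Plk3 was lost (adjusted p = 0.0552).

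Sat1, which encodes an enzyme of polyamine breakdown, lay at 31.1 to 54.4 FPKM in control slices and at 50.5 to 75.0 FPKM after the cocktail (log2 fold change 0.41, adjusted p = 0.0136 from limma). Its adjusted p was 0.279 without the block, 0.0755 without the filter on low values, and 0.0543 and 0.0717 without mouse 2 and 4. It was higher in 6 of 6 mice, and its groups overlapped. Gdf15, which encodes a stress-induced cytokine, fell in 6 of 6 mice. Control slices had 2.57 to 10.2 FPKM and cocktail-treated slices 1.34 to 5.14 FPKM, overlapping ranges that rest on 18 to 127 reads. The change was -0.82 on the log2 scale (adjusted p = 6.46e-05 from limma, but 0.266 without the block).

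**Figure D5:**
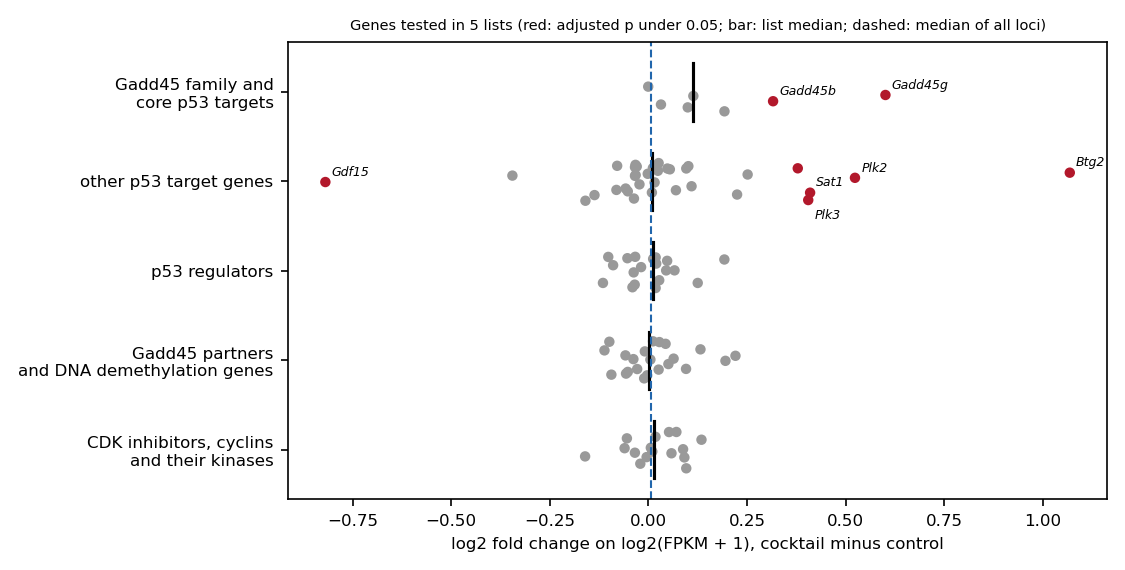
Log2 fold change on the log2(FPKM + 1) scale, cocktail minus control (x axis), of each gene tested in 5 lists (rows), with red points for genes called (named where the text describes them), black bars for the list medians and a dashed line for the median of all loci. Calls are found among the 7 genes (2) and the other p53 targets (6), while the remaining 3 lists hold none and stay between -0.16 and 0.22.

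Genes that act upstream of these targets, or together with their products, gave no call. Of the p53 regulators 19 were tested, and limma called 0, voom 0, with 1 at an unadjusted p under 0.05 and a median log2 fold change of 0.01. The most positive was the deacetylase gene Sirt1 (0.19, adjusted p = 0.522 from limma) and the most negative Trp53, the gene of p53 itself (-0.12, adjusted p = 0.647 from limma). Without mouse 1 these values were 0.11 and -0.07, and voom gave -0.18 for Trp53. Trp53 was measured at 9.48 to 10.8 FPKM in control and 7.90 to 10.3 FPKM in the cocktail, ranges that overlapped. Of the 22 Gadd45 partners and DNA demethylation genes tested, limma called 0 and voom 0, with 3 at an unadjusted p under 0.05 and a median of 0.0010. Their extremes were the replication clamp gene Pcna (0.22, adjusted p = 0.385 from limma, but 0.31 and 0.0296 without mouse 6) and Gadd45gip1, whose product binds Gadd45 proteins (-0.11, adjusted p = 0.788 from limma). The latter was -0.19 without mouse 2, the only mouse in which it was higher, and -0.06 without mouse 5. Of the 16 CDK inhibitors, cyclins and kinases tested, limma called 0 and voom 0, with 1 at an unadjusted p under 0.05 and a median of 0.01. The extremes there were the inhibitor genes Cdkn1c (0.13, adjusted p = 0.730 from limma) and Cdkn2d (-0.16, adjusted p = 0.429 from limma). Cdkn1c was at 0.08 without mouse 5 and with voom.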

How the data were processed

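Poly-A RNA of 6 control and 6 cocktail hemispheres, paired by the mouse number in the labels, was sequenced with single reads of 50 bp in 1 lane. The authors removed ribosomal reads with BWA 0.6.1, aligned to mm10 with TopHat 1.4.1 (1 placement per read, at most 6 mismatches), and deposited FPKM with an interval from Cufflinks 1.3.0, with bias correction. The authors' DESeq2 comparison of HTSeq counts, deposited as fold changes, p-values and group means, was not used.

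FPKM was used as deposited. Recovered reads, 4 times the squared ratio of FPKM to the half-width of its interval, were whole to within 0.05 for 82.8% of 36413 values under 20 reads. Values were transformed to log2(FPKM + 1), and loci whose mean FPKM reached 1 entered a linear model of treatment and mouse (limma 3.58.1, R 4.3.3) with a variance trend. The model was run on simulated data with normal noise, means and mouse effects taken from the fit itself. That checks the code and not whether the model suits FPKM values. Intervals between 2 genes are 95% intervals of a mean over 6 mice. Deviations from the group means correlated at 0.216 to 0.406 between hemispheres of a mouse and at -0.42 to 0.445 between different mice, and no library was a copy of another (chi-square per locus of at least 7.80). P-values with the block, and those of the sign-flip test, rest on the within-mouse differences of these 6 mice. The limma fit also draws on the variance trend over all loci. Without the block, p-values include the spread between mice. Promoters came from RefSeq and overlaps from GENCODE M21.

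The genes and lists were chosen with earlier results of these data known. Named were all 7 genes, the genes called and the largest rise and fall in each pathway list, and the 2 loci most correlated with each gene. Of the genes called, 1 is included in the counts but is not reported here. Alternatives changed the block, pseudocount, filter, scaling, variance trend and mice, or used voom.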

Additional observations from a re-analysis of the deposited data

Results flagged for a closer look

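Each set of 6 mice was searched for a single distant mouse. Of 57 sets 3 had one, and about 2.85 would be found by chance. The difference of Gadd45a between the hemispheres of mouse 6 was -0.34 on the log2 scale, against 0.24 to 0.44 in the other mice. The cocktail FPKM of Gadd45b in mouse 6 was 42.4, against 60.8 to 66.7 in the others. The control FPKM of Sirt1 in mouse 1 was 2.60, against 3.88 to 4.54. Mouse 6 also had the smallest rise of Gadd45g (0.39) and of Gadd45b (0.12).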

How the results depend on the processing

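The alternatives listed were all run, and all were planned. The number of loci called was 180, and 88 without the replicate block (77 higher), 118 with voom on the recovered reads, and 104 to 181 with 1 mouse left out, where 104 was without mouse 4. The number of the 7 genes called was 2, and 1 (Gadd45g) without the block and with voom, and 1 to 3 with 1 mouse left out. It was 1 without mouse 2, 3 or 4, since Gadd45b lost its call, and 3 without mouse 6, with Gadd45a added. The other p53 targets called were 6, and 3 (Btg2, Plk2 and Plk3) without the block. The Gadd45 partners called ranged from 0 to 1 with 1 mouse left out, the 1 being Pcna without mouse 6. With 5 mice the sign-flip test cannot go below 0.0625, so 0 genes passed it whichever mouse was left out, against 2 with all mice. The log2 fold change of Ccng1 ranged from -0.0396 (without mouse 1, a change of sign) to 0.0689 with 1 mouse left out, and that of Ppm1d from -0.0569 to 0.0351, with a change of sign to 0.0241, 0.0351 and 0.0320 without mouse 2, 5 and 6. Gadd45g was called in all 14 alternatives (log2 fold change 0.55 to 0.64). With a mean FPKM of at least 5, 131 of 8522 loci were called and 94.7% of them were higher, against 81.7% at first, and Cdkn1c, Gdf15 and Sirt1 were among the genes not tested. Higher calls went from 147 to 77 without the block, 84 without mouse 4 and 95 without mouse 3. Lower calls went from 33 to 11 without the block and to 19 both with voom and without mouse 2. These counts are of all calls in a setting, including any that were not called at first. The other p53 targets called higher went from 5 to 3 with voom, without the filter on low values and without mouse 4. Gdf15 had at most 127 reads per library. It kept its call with voom (adjusted p = 0.00202 from voom) and lost it only without the block. The causes of these shifts were not tested.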
